A study of Macaca mulatta with 13 samples.

Results

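MicroRNAs (miRNAs) that mark white blood cells were followed in small RNA libraries made from rhesus monkey thigh muscle (vastus lateralis biopsies). The members are the mature miRNAs of 4 hairpins, miR-223, miR-142, miR-150 and miR-342. They were taken by name from the deposited table, with a hairpin's name alone or with a copy number or an arm, and 7 of the 909 named miRNAs met this rule. Those 7 are miR-223, listed without an arm, and both arms (5p and 3p) of miR-142, miR-150 and miR-342, each listed once. The comparison asks how they differed between monkeys under caloric restriction (CR, 8 samples) and monkeys on a control diet (Control, 5 samples). The series is titled for networks linked to how CR prevents sarcopenia, in which muscle is lost as animals age. The labels used here give the diet and the muscle of each sample, but no age, sex or length of the diet, and they do not say outright that each sample is a different animal, so p-values measure the spread between these samples.

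A miRNA is cut from a hairpin transcript, and 1 or both arms are loaded into Argonaute proteins, where they pair with messenger RNAs through the seed near the 5′ end and lower their output. In human and mouse, miR-223 is the classical myeloid miRNA, abundant in neutrophils and monocytes and also in platelets. The miRNA miR-142 is made in nearly all cells of blood origin, miR-150 is abundant in mature B, T and NK lymphocytes, where it represses the transcription factor gene MYB in mouse, and miR-342 is enriched in lymphocytes and lies in an intron of EVL, a regulator of actin that other cells express too. In the T2T-MMU8v2.0 RefSeq annotation of the rhesus genome the miR-342 gene also lies within EVL, the miR-142 gene lies between SUPT4H1 and TSPOAP1, and the next protein-coding gene after that of miR-223 is VSIG4. Muscle fibres are not known as a main source of miR-223, miR-142 or miR-150. In a biopsy these miRNAs can come from blood in the vessels as well as from leukocytes in the tissue, and fewer cells of a type cannot be told apart from less RNA per cell.

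The libraries held 1154326 (CR replicate 1) to 5392612 (CR replicate 6) counts in named miRNAs. Skeletal muscle markers (miR-1, miR-133a, miR-133b and miR-206, which define muscle) summed to 39199 to 80944 CPM in CR and 13531 to 58687 CPM in Control, where CPM are counts brought to 1 common library size by edgeR's TMM factors. The lowest of these sums belonged to Control replicate 4 and the highest to CR replicate 8. Epithelial markers stayed at 0.972 to 9.99 CPM in CR and 0.751 to 2.80 CPM in Control, summed over 9 names of which 5 were at 0 counts in every library. Liver markers (miR-122a) summed to 0.571 to 8.32 CPM in CR and 1.68 to 24.2 CPM in Control. Neuron markers (miR-9 and miR-124a) summed to 2.77 to 13.7 CPM in CR and 1.55 to 5.41 CPM in Control. Control replicate 4 also held the highest sum of the fibroblast miRNAs miR-199a and miR-214, at 2048 CPM against 486.6 to 1636 CPM in the other 12 libraries, and results that rest on this library are given with and without it.

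Leukocyte miRNAs were a small part of the muscle miRNA pool. The 7 members together took 0.0299 to 0.0893% of named miRNA counts in CR libraries (median 0.0375%, n = 8) and 0.0308 to 0.123% in Control libraries (median 0.0486%, n = 5). Their mean share was 0.0442% ± 0.0191 in CR and 0.0615% ± 0.0370 in Control (SD). No test was made of this sum over chosen miRNAs. The highest share belonged to Control replicate 4 (95% exact binomial interval 0.120 to 0.127%) and the next to CR replicate 2 (0.0862 to 0.0924%). Such intervals cover at most counting error, and they are too narrow where reads copied by PCR do not count separate molecules. The difference, CR minus Control, was -0.0173 percentage points with all libraries and -0.00184 without Control replicate 4. Of all member counts, 79.4% were miR-150-5p, 15.3% miR-342-3p, 2.88% miR-142-5p and 1.08% miR-223, and the remaining names, all minor arms, held less than these.

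The order of the levels was steady from library to library. In 13 of 13 libraries miR-150-5p had more counts than miR-342-3p, miR-342-3p more than miR-142-5p, and miR-142-5p more than miR-223. The last of these steps rests on few counts in some libraries, such as 9 against 7 in Control replicate 2 and 7 against 3 in CR replicate 8. Among the lowest members the order was not fixed, with miR-223 above the minor arm miR-342-5p in 7 of 13 libraries. Among the 263 miRNAs tested, miR-150-5p ranked 66 by mean CPM, miR-342-3p 107, miR-142-5p 162, miR-223 224 and miR-342-5p 249. CPM is not divided by length, which differs little between mature miRNAs, and ligation can favour one sequence over another, so this is an order of counts.

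No leukocyte miRNA passed the test for a difference between the diets, and for each the groups overlapped. Of the 7 members 5 passed the filter on low counts and were tested, 4 with a lower and 1 with a higher fitted level in CR, and 0 passed an adjusted p of 0.05 (edgeR quasi-likelihood test, Benjamini-Hochberg over 263 miRNAs). Over all 263 tested miRNAs 0 passed either, which is a background of 0%. At an unadjusted p under 0.05 there were 0 of the 5 members and 7 of the 263 miRNAs (2.66%), and DESeq2 and limma-voom each called 0 of the 263. The median log2 fold change, CR over Control, was -0.22 over the 5 members and 0.0103 over all tested miRNAs. Without Control replicate 4 the value of miR-342-5p, the member at this median, was -0.0396, and that of miR-150-5p turned to 0.0243. The median of all tested miRNAs was then 0.0603. For 0 of the 263 miRNAs did the CPM of CR and Control libraries not overlap (0%). The adjusted p was 0.985 for each of the 5 members.

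**Figure D1:**
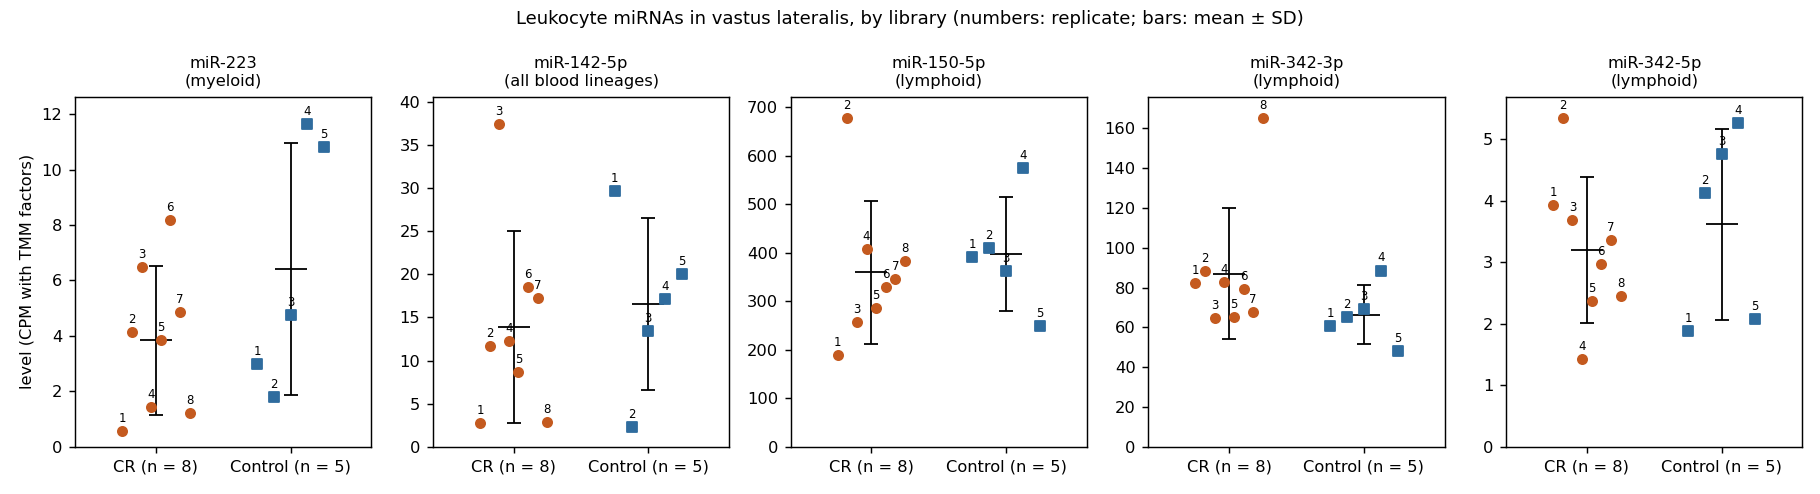
Level in CPM with TMM factors (vertical axis, linear, from 0) of the 5 tested leukocyte miRNAs in 8 CR libraries (circles) and 5 Control libraries (squares). Numbers are replicates and bars are mean ± SD; CR and Control libraries overlap in every panel, with CR replicate 8 alone at 165 CPM for miR-342-3p.

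The myeloid miRNA miR-223 was the scarcest of the 4 major members. It stood at 0.562 CPM at the lowest (CR replicate 1), 4.00 CPM at the median and 8.17 CPM at the highest (CR replicate 6) in CR. In Control replicates 1 to 5 it stood at 3.01, 1.80, 4.76, 11.6 and 10.8 CPM. The 2 highest libraries of all were therefore Control replicates 4 and 5, the other Control libraries lay among the CR ones, and 3 CR libraries lay below every Control library. These levels rest on 1 to 33 counts in CR and 7 to 95 counts in Control; the single count of CR replicate 1 has a 95% exact Poisson interval of 0.0253 to 5.57 counts. The mean was 3.84 ± 2.68 CPM in CR and 6.41 ± 4.54 CPM in Control (SD, n = 8 and 5), with 6 of 8 CR libraries below the Control mean. EdgeR gave a log2 fold change of -0.71 ± 0.54 (SE; 95% interval -1.84 to 0.41; adjusted p 0.985). Without Control replicate 4 the Control mean was 5.10 ± 4.01 CPM (SD, n = 4) and the log2 fold change -0.34.

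The pan-leukocyte miRNA miR-142 varied widely between libraries. Its 5p arm, the main one here, stood at 2.81 CPM at the lowest (CR replicate 1), 11.97 CPM at the median and 37.4 CPM at the highest (CR replicate 3) in CR. In Control replicates 1 to 5 it stood at 29.7, 2.32, 13.4, 17.1 and 19.99 CPM. Low libraries were found under both diets: CR replicates 1 and 8 and Control replicate 2 held under 3 CPM, while the other 10 held 8.62 CPM or more. Across all libraries the highest level was 16.1 times the lowest. The low levels rest on few counts, 5 in CR replicate 1, 7 in CR replicate 8 and 9 in Control replicate 2. With 13.9 ± 11.1 CPM in CR and 16.5 ± 9.96 CPM in Control (SD, n = 8 and 5), the log2 fold change was -0.24 ± 0.56 (SE; 95% interval -1.40 to 0.93; edgeR adjusted p 0.985). Without Control replicate 1 it was 0.0253 and without CR replicate 3 it was -0.61.

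The miRNAs miR-150 and miR-342, called lymphoid here from what is known of them, were more even. Whether their counts in these biopsies came from lymphocytes was not tested. The most abundant, miR-150-5p, stood at 188 CPM at the lowest (CR replicate 1), 337 CPM at the median and 677 CPM at the highest (CR replicate 2) in CR. In Control replicates 1 to 5 it stood at 392, 410.1, 362, 575 and 249.9 CPM. The groups overlapped at both ends, with 6 of 8 CR libraries inside the Control range. The mean was 359 ± 146 CPM in CR and 398 ± 117 CPM in Control (SD, n = 8 and 5). EdgeR gave a log2 fold change of -0.15 ± 0.28 (SE; 95% interval -0.73 to 0.43; adjusted p 0.985), so a 2-fold difference in either direction lay outside this interval. Without Control replicate 4 the log2 fold change was 0.0243.

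For miR-342-3p the fitted level was higher in CR, against the direction of the other 4 tested members. It stood at 64.7 CPM at the lowest (CR replicate 3), 80.7 CPM at the median and 165 CPM at the highest (CR replicate 8) in CR, and at 60.9, 65.2, 69.2, 88.5 and 48.3 CPM in Control replicates 1 to 5. Apart from CR replicate 8, the CR libraries lay within the Control range, at 64.7 to 88.4 CPM. The mean was 87.0 ± 32.9 CPM in CR and 66.4 ± 14.6 CPM in Control (SD, n = 8 and 5), and 6 of 8 CR libraries were above the Control mean. The log2 fold change was 0.39 ± 0.26 (SE; 95% interval -0.16 to 0.93; edgeR adjusted p 0.985). Without CR replicate 8 it was 0.11, with a CR mean of 75.8 ± 9.61 CPM (SD, n = 7), and without Control replicate 4 it was 0.51. With libraries scaled to their totals alone it was -0.0375, where the median of all tested miRNAs moved to -0.26. Relative to that median the value of miR-342-3p was 0.22, and that of miR-223 was -0.92. In CR replicate 8 skeletal muscle markers summed to 80944 CPM and the adipose-linked miRNAs miR-193b and miR-365 to 3018 CPM, both the highest of the 13 libraries, and miR-451, a red blood cell miRNA, was the lowest at 135 CPM. Their part in the level of miR-342-3p was not tested. CR replicate 8 also had the lowest TMM factor of the 13 libraries (0.624), and a low factor raises every CPM of its library. As a share of counts its miR-342-3p (0.0103%) was below that of CR replicate 1 (0.0126%) and Control replicate 4 (0.0156%). Shares depend in turn on miR-486-5p, the most abundant miRNA. It took 67.9% of counts in CR replicate 8, 44.6% in CR replicate 1 and 42.4% in Control replicate 4. For each 100 counts of miR-150-5p, CR replicate 8 held 43.1 of miR-342-3p. That ratio ran from 13.1 to 43.6 in CR and from 15.4 to 19.3 in Control. The part of scaling in the level of miR-342-3p was not tested.

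**Figure D2:**
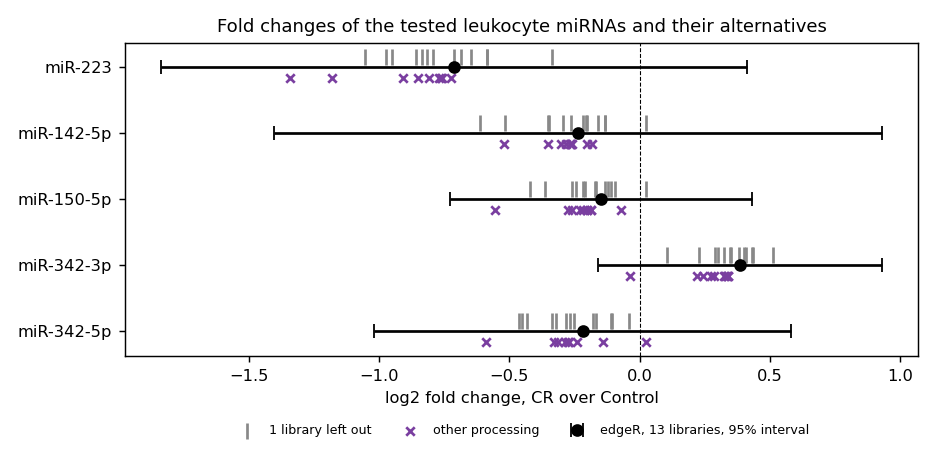
Log2 fold change, CR over Control (horizontal axis), of the 5 tested leukocyte miRNAs (rows). Black points are the edgeR estimates over 13 libraries with 95% intervals, grey ticks leave out 1 library each and crosses are other processing choices; every black interval includes 0, and the estimate of miR-223 stays below 0 throughout, from -1.34 to -0.34.

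The minor arms were rare. In all libraries pooled, miR-342-5p was 4.39% of miR-342 counts, miR-142-3p 2.63% of miR-142 counts and miR-150-3p 0.620% of miR-150 counts. For miR-142 both arms are known as functional in blood cells, and here the 3p arm had 15 counts in the 8 CR libraries and 4 in the 5 Control libraries, with 0 counts in 5 of the 13 libraries. At 0 counts the limit is 3 counts, which is 0.768 to 2.60 unscaled CPM in these 5 libraries. Neither miR-142-3p nor miR-150-3p (1 to 12 counts in CR and 4 to 31 in Control) passed the filter on low counts. With no filter their log2 fold changes were 1.16 ± 0.97 and 0.17 ± 0.50 (SE), with edgeR adjusted p of 0.820 and 0.962 over 612 miRNAs. The tested minor arm, miR-342-5p, held 3.20 ± 1.18 CPM in CR and 3.62 ± 1.55 CPM in Control (SD, n = 8 and 5), a log2 fold change of -0.22 ± 0.38 (SE; 95% interval -1.02 to 0.58; edgeR adjusted p 0.985). Without Control replicate 4 its log2 fold change was -0.0396.

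Ratios of counts within a library do not depend on the scaling factor, and 2 were compared between the diets by two-sided exact permutation tests (1287 assignments of the diets to the libraries, smallest possible p 0.000777). The first set the myeloid miR-223 against the lymphoid miR-150-5p. For each 100 counts of miR-150-5p there were 0.299 (CR replicate 1) to 2.51 (CR replicate 3) counts of miR-223 in CR, with a median of 0.981, and in Control replicates 1 to 5 there were 0.768, 0.440, 1.31, 2.02 and 4.33. The log2 ratio was -6.76 ± 1.18 in CR and -6.20 ± 1.24 in Control (SD, n = 8 and 5), a difference of -0.56 with an exact permutation p of 0.432 (adjusted over the 2 ratios, 0.432). Without Control replicate 5 the difference was -0.13, and without Control replicate 2 it was -0.94. The spread within a diet was thus larger than the difference between diets. The second ratio, miR-342-5p to miR-342-3p, was -4.71 ± 0.74 in CR and -4.22 ± 0.43 in Control on the log2 scale (SD, n = 8 and 5), with a difference of -0.49 and an exact permutation p of 0.220 (adjusted 0.432). Its lowest values were those of CR replicates 8 and 4, at 1.49 and 1.72 counts of miR-342-5p for each 100 of miR-342-3p. Further ratios, tested after the values were seen, are given below. Adjusted over all 10 ratios between the 5 tested members, the exact permutation p was 0.692 for each of the 2 ratios above.

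**Figure D3:**
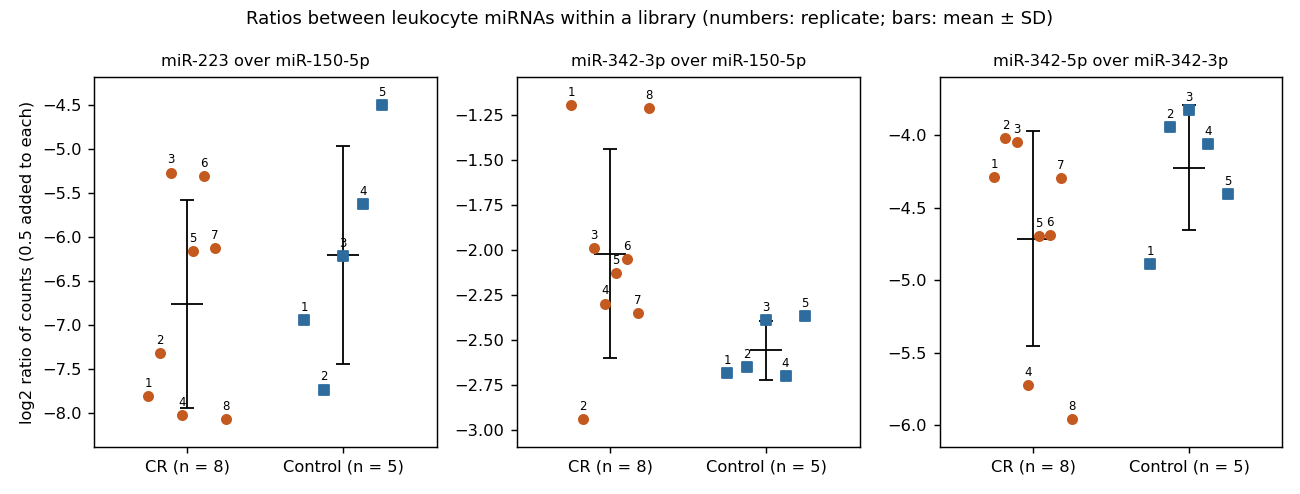
Log2 ratios of counts within a library (vertical axis, 0.5 added to each count) for miR-223 over miR-150-5p, miR-342-3p over miR-150-5p and miR-342-5p over miR-342-3p, in 8 CR libraries (circles) and 5 Control libraries (squares). Numbers are replicates and bars are mean ± SD; in the middle panel 7 of 8 CR libraries lie above every Control library and CR replicate 2 lies below them. The ratio in the middle panel was tested after it was seen (exact permutation p 0.0707, adjusted over 10 ratios 0.692).

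The myeloid and pan-leukocyte members had larger spreads between libraries than the lymphoid ones. The SD of log2 CPM within the diets was 1.25 for miR-142-5p and 1.05 for miR-223, ranks 8 and 16 from the highest among 263 miRNAs, whose median was 0.55. It was 0.50 for miR-150-5p, 0.39 for miR-342-3p and 0.52 for miR-342-5p. Scarce miRNAs vary more through counting alone, so each was also set beside the 40 miRNAs nearest to it in mean CPM. The SD of miR-142-5p was above that of 36 of its 40 neighbours and that of miR-223 above 34, against 20 for miR-150-5p, 13 for miR-342-3p and 6 for miR-342-5p. No test was made between the members' spreads.

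By Pearson's r, and by a narrow margin, the miRNA most like miR-142-5p across the 13 libraries was miR-451, a miRNA of the red blood cell lineage. Its level was 135 CPM at the lowest (CR replicate 8), 524 CPM at the median and 1509 CPM at the highest (CR replicate 6) in CR, and 1014, 137, 629, 745 and 1383 CPM in Control replicates 1 to 5. CR replicates 1 and 8 and Control replicate 2, low in miR-142-5p, were also the 3 lowest in miR-451. Between log2 CPM of miR-142-5p and miR-451, Pearson's r was 0.92 and Spearman's rho 0.89 (n = 13). This pair has the highest of 262 values of r for miR-142-5p, so it is a description and carries no p. The value of r was 0.88 without the 2 libraries farthest from the median of miR-142-5p (Control replicate 2 and CR replicate 1), 0.90 within the 8 CR libraries, and 0.72 within the 10 libraries left without the 3 low ones. The other 9 pairs among miR-150-5p, miR-342-3p, miR-142-5p, miR-223 and miR-451 were chosen after their values were seen. With p-values adjusted over these 9, 0 had an adjusted p under 0.05.

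The myeloid miRNA had lower values of r, a difference that was not tested. For miR-223 and miR-451 Pearson's r was 0.69 (permutation p 0.0122, adjusted 0.0549) and Spearman's rho 0.68 (permutation p 0.0131, adjusted 0.0589; n = 13), but r was 0.51 without CR replicates 1 and 8 and 0.28 within the 10 libraries. For miR-142-5p and miR-223 r was 0.73 (permutation p 0.00566, adjusted 0.0509) and rho 0.69 (permutation p 0.0114, adjusted 0.0589), with r of 0.59 without Control replicate 2 and CR replicate 1 and 0.30 within the 10 libraries. Both missed the threshold after adjustment, and both were weaker without the libraries low in these miRNAs. Within the 8 CR libraries they were not weaker, with r of 0.69 for miR-223 and miR-451 and 0.85 for miR-142-5p and miR-223. Adjusted over 10 pairs, with the pair of miR-142-5p and miR-451 counted, the permutation p of Pearson's r was 0.0407 for miR-223 and miR-451 and 0.0283 for miR-142-5p and miR-223, so the call depends on counting a pair picked for its likeness.

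For the lymphoid miRNAs the relation with miR-451 was weak or negative. Pearson's r with miR-451 was -0.0878 for miR-150-5p (permutation p 0.774, adjusted 0.808; Spearman's rho -0.27, permutation p 0.366) and -0.52 for miR-342-3p (permutation p 0.0842, adjusted 0.253; rho -0.45, permutation p 0.132). The second was -0.00920 without CR replicate 8 and Control replicate 5. By log2 share of counts these r were 0.0118 and -0.41. With miR-142-5p, r was 0.0763 for miR-150-5p (permutation p 0.808, adjusted 0.808; rho -0.23). For miR-342-3p with miR-142-5p it was -0.49 (permutation p 0.126, adjusted 0.284; rho -0.48), and -0.16 without CR replicate 8 and Control replicate 5. With each other miR-150-5p and miR-342-3p had an r of 0.33 (permutation p 0.272, adjusted 0.408; rho 0.45, permutation p 0.131). By log2 share of counts their r was 0.66, so its size depends on the scaling. Within the 10 libraries not low in miR-142-5p their r was 0.78 and rho 0.77, and without CR replicates 1 and 2 their r was 0.46. Control replicate 2 shows the contrast in 1 library, with miR-150-5p at 410.1 CPM, the third highest of 13, beside the lowest miR-142-5p and the next to lowest miR-451. A difference between these correlations was not tested.

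**Figure D4:**
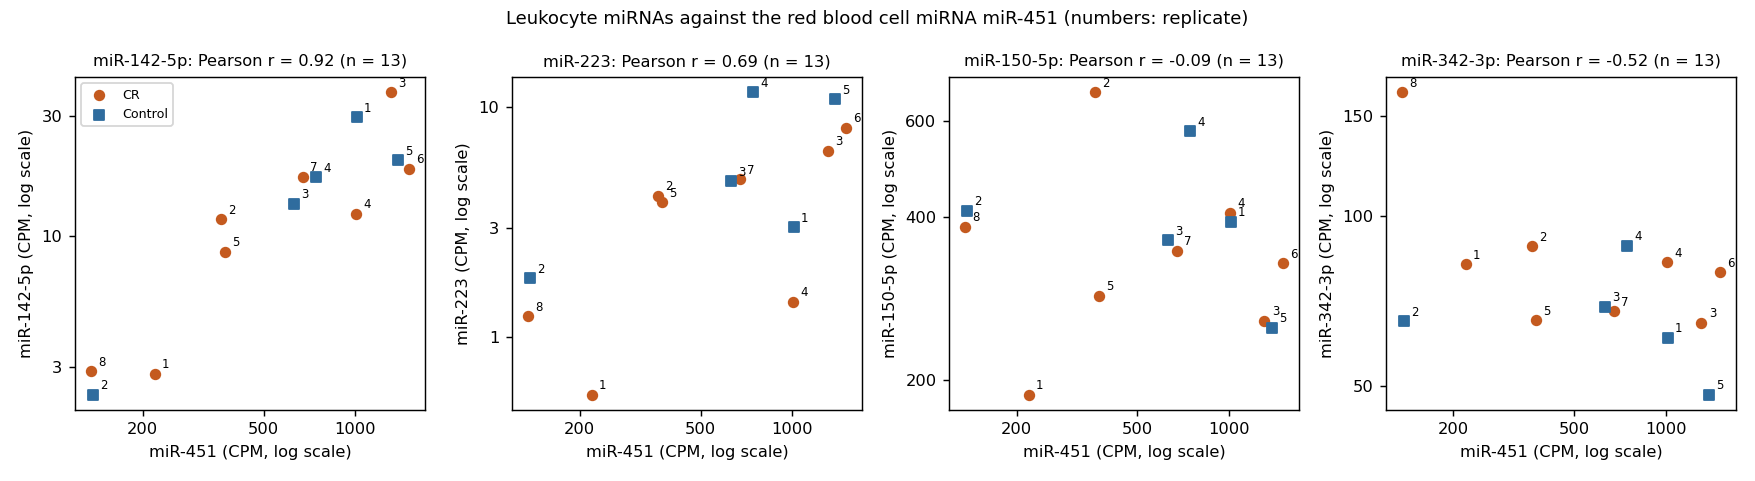
Level of 4 leukocyte miRNAs (vertical axes) against miR-451 (horizontal axes), both in CPM on log scales, in 8 CR libraries (circles) and 5 Control libraries (squares) with replicate numbers. Pearson's r is of log2 CPM over 13 libraries: miR-142-5p (0.92) and miR-223 (0.69) are higher where miR-451 is higher, with CR replicates 1 and 8 and Control replicate 2 at the low end, while miR-150-5p (-0.09) and miR-342-3p (-0.52) are not.

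Since miR-142-5p followed miR-451 across the libraries, the diets were also compared relative to it, an alternative chosen after the values were seen. The log2 ratio of miR-142-5p to miR-451 was -5.63 ± 0.56 in CR and -5.59 ± 0.38 in Control (SD, n = 8 and 5), a difference of -0.0390 (two-sided exact permutation p 0.892, adjusted over 4 miRNAs 0.936). The difference was -0.50 for miR-223 (exact permutation p 0.382), 0.0590 for miR-150-5p (p 0.936) and 0.60 for miR-342-3p (p 0.508), each with an adjusted p of 0.936. By edgeR miR-451 itself had a log2 fold change of -0.16 ± 0.55 (SE; adjusted p 0.985). Its companion miR-144, with a median of 0.935 CPM in CR and 1.68 CPM in Control, was not tested for its low counts.

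By the same measure, the miRNAs next most like miR-142-5p were miR-584-5p and miR-17-3p, the second a strand of the miR-17/92 growth cluster. Their Pearson's r was 0.922 and 0.921, beside 0.923 for miR-451. By Spearman's rho both were above miR-451 (0.92 and 0.93 against 0.89). Without Control replicate 4 both also had the higher Pearson's r (0.932 and 0.927 against 0.923). Those most like miR-223 were the endothelial miRNA miR-126 (0.82), miR-195-5p (0.75) and miR-10a-5p (0.74). The closest to miR-150-5p were miR-125a-5p (0.82), miR-193a-5p (0.79) and miR-125b-5p (0.79), and those to miR-342-3p were let-7a-5p, miR-148b-3p (0.63 each) and miR-1260b (0.61). These are the 3 highest of 262 values for each member over 13 libraries, so they carry no p, and all levels in a library share its scaling factor. Without Control replicate 4 the 12 values ran from 0.60 to 0.93.

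Other miRNAs with known roles in leukocytes were listed by 25 name stems, of which 24 were found, as 47 mature names. They include miR-155 and miR-146 of the inflammatory response, miR-181 of lymphocyte development, the miR-23a cluster and miR-424 of myeloid differentiation, and the miR-17/92 cluster, and most are also made in other tissues. Of these names 28 were tested, 15 with a higher and 13 with a lower fitted level in CR, and 0 passed edgeR's adjusted threshold, with 0 at an unadjusted p under 0.05. Their median log2 fold change was 0.0494, beside 0.0103 over all tested miRNAs. The members with the smallest p were miR-29c-5p, at 11.4 ± 4.02 CPM in CR and 7.53 ± 2.64 CPM in Control (SD, n = 8 and 5), and miR-27a-3p, at 307.5 ± 121 CPM in CR and 231 ± 43.8 CPM in Control, both with an edgeR adjusted p of 0.985. Together the 47 names summed to 31339 to 42931 CPM in CR and 30545 to 48587 CPM in Control.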

How the data were processed

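Total RNA was extracted with Trizol, small fragments were cut from a gel and TruSeq small RNA libraries were read single-end, per the labels' protocols. Per the submitters' processing notes the build was Mmul_8.0.1. Aligner and counter were not given in the sources used here. From the authors came 1 deposited table of raw counts, not normalized as its values show. Of its 1703 rows, 702 predicted loci were left out; 67 names stood in several rows, of which the fullest was used, and 3 pairs of names with nearly equal counts (within 1%) were joined.

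The count test was edgeR 4.0.16 in R 4.3.3 (robust quasi-likelihood fit, TMM factors, filterByExpr, no covariates), with adjustment over 263 miRNAs and a threshold of 0.05. Log2 CPM used a prior count of 2 and ratios added 0.5 to each count. Permutation tests were run in SciPy 1.17.1, those of correlations with 100000 random pairings. Alternatives used DESeq2 1.42.0, limma-voom (limma 3.58.1), other scaling, filters, covariates, and leaving out each library. The scripts were tested on simulated data. A check for a library deposited more than once found none within counting noise (lowest chi-square over its degrees of freedom 149 within a diet); it says nothing on whether samples share an animal. All 7 members are named; likeness and the other lists follow fixed rules. The members and lists were chosen with earlier results of these data known.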

Additional observations from a re-analysis of the deposited data

Results flagged for a closer look

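In 20 group-by-measure checks a single library far from the rest of its diet was sought. Of these, 5 stood out by Dixon's test at the 95% level. A chance rate of about 1 in 20 holds for normally distributed values in separate checks. The 5 flagged were unlogged CPM and shares, and some measures contain others, so their number cannot be set against that rate. All 5 were CR libraries, but the test needs a wider gap to flag 1 of 5 Control libraries than 1 of 8 CR libraries. The 2 shares overlap with the level of miR-150-5p.

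In CR replicate 8 miR-342-3p stood at 165 CPM, with the other 7 CR libraries at 64.7 to 88.4 CPM. That library had the lowest TMM factor (0.624). By share of counts its miR-342-3p was not the highest in CR (0.0103%, beside 0.0126% in CR replicate 1). For each 100 counts of miR-150-5p it held 43.1 of miR-342-3p, beside 43.6 in CR replicate 1. The part of scaling was not tested. In CR replicate 2 miR-150-5p stood at 677 CPM, with the others at 188 to 407 CPM, and this library's share of counts was 0.0893% for all members (others 0.0299 to 0.0486%) and 0.0874% for the lymphoid ones (others 0.0262 to 0.0461%). In CR replicate 3 miR-142-5p stood at 37.4 CPM, with the others at 2.81 to 18.6 CPM.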

How the results depend on the processing

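Under 23 alternatives the number of leukocyte miRNAs past the threshold was 0, as was that of all tested miRNAs. At an unadjusted p under 0.05 the count over all tested miRNAs was 7, and ran from 2 to 28 (28 with no filter on low counts, over 612 miRNAs, and 12 with library totals alone). The direction of miR-223 was kept in 22 of 22 alternatives (log2 fold change -1.34 to -0.34); with the sample number as a covariate its unadjusted p was 0.0400 and edgeR's adjusted p 0.969. The other members each turned in 1 of the listed settings: miR-142-5p at 0.0253 without Control replicate 1, miR-150-5p at 0.0243 without Control replicate 4, miR-342-3p at -0.0375 with library totals alone, and miR-342-5p at 0.0255 with the sample number as a covariate. With 1 library left out, the lowest values were -0.61 for miR-142-5p (without CR replicate 3) and -0.42 for miR-150-5p (without CR replicate 2). With library totals alone miR-150-5p was at -0.56, miR-142-5p at -0.52, miR-342-5p at -0.59 and miR-223 at -1.18, where the median of all tested miRNAs was -0.26. Relative to miR-451, miR-150-5p also turned (0.0590). The cause was not tested. With 1 library left out, the miR-223 to miR-150 difference ran from -0.94 to -0.13, that of the miR-342 arms from -0.66 to -0.31, and that of the members' share from -0.0250 to -0.00184 percentage points. With the replicate number as a block the 5 log2 fold changes were -0.91 (miR-223), -0.18 (miR-142-5p), -0.23 (miR-150-5p), 0.22 (miR-342-3p) and -0.14 (miR-342-5p), with 0 calls. Same-numbered libraries did not deviate together (correlations -0.24 to -0.0474). Paired samples need not deviate together, so this cannot show whether the numbers pair the samples. Low counts limit miR-223, miR-342-5p, miR-150-3p and miR-142-3p.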

Other observations

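Set against each other within a library, the lymphoid miRNAs miR-342-3p and miR-150-5p were nearly constant in ratio in Control and less so in CR. For each 100 counts of miR-150-5p there were 43.6, 13.1, 25.1, 20.3, 22.9, 24.2, 19.6 and 43.1 counts of miR-342-3p in CR replicates 1 to 8, and 15.5, 15.9, 19.1, 15.4 and 19.3 in Control replicates 1 to 5. Thus 7 of 8 CR libraries lay above every Control library and CR replicate 2 lay below. The log2 ratio was -2.02 ± 0.58 in CR and -2.56 ± 0.17 in Control (SD, n = 8 and 5), a difference of 0.54 (exact permutation p 0.0707, two-sided). The pattern was noticed in these data and then tested on them; over all 10 ratios between the 5 tested members the adjusted p was 0.692, and it did not pass. Without CR replicate 2 the difference was 0.67 (exact permutation p 0.0114, not adjusted). CR replicate 2 was the only CR library that ran against the pattern. Its removal therefore favours the pattern, and no conclusion is drawn from that p. Without CR replicate 1 the difference was 0.42, and without both CR replicates 1 and 8 it was 0.27 (exact permutation p 0.130). Over single libraries left out p ran from 0.0114 to 0.115 (without Control replicate 4).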
